A study of Mus musculus with 24 samples.

Results

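Wild-type mouse liver at zeitgeber time 12 (ZT12, which by the usual convention is 12 h after the start of the light phase) was compared with the hours on either side, ZT08 and ZT16. The members were chosen by their labels: 2 libraries at ZT12 and 4 libraries at ZT08 and ZT16, so 6 of the 24 libraries of the series. The hour itself was picked because earlier results of these data showed it to stand out, so every wild-type value at ZT12 below is a description and supports nothing on its own. The series profiled poly(A) RNA of liver from mice fed ad libitum, aged 12 to 16 weeks, that were either wild type (Hlf+/+/Dbp+/+/Tef+/+) or lacked all 3 PAR bZip factors (Hlf-/-/Dbp-/-/Tef-/-, here called the knockout). Each genotype was sampled every 4 h from ZT04 to ZT24, and each of the 12 groups has 2 libraries. All groups share tissue, feeding and age range, and the labels used here give no strain and do not say whether a library holds 1 animal or several. The descriptions of all 24 libraries share the letter M, from which no sex was read here. Each library's description also carries a letter, I or P, whose meaning is not stated, and these 2 letters are reported apart as set I and set P. The p-values of the main fit rest on the spread between the 2 libraries of a group, estimated over all 12 groups of both genotypes and not from ZT12 alone. This spread may be technical.

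In a smooth daily rhythm a transcript lies between its levels at the hours before and after, except near its peak or trough. There it lies beyond both, so a difference from both neighbours does not by itself mark a departure from a smooth rhythm. PAR bZip factors (DBP, TEF and HLF) are transcription factors that the circadian clock drives in liver, and they bind D-box sequences in genes of detoxification and lipid metabolism. Several other inputs reach liver genes on a daily scale: fatty acids through the nuclear receptor PPAR-alpha, glucocorticoids through their receptor, and growth hormone pulses through STAT5, which also set the differences between male and female mouse liver. Interferons act through receptors on the cell surface on a group of antiviral genes.

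The 6 libraries held between 16080000 and 17940000 counts, and all 24 held between 14610000 and 19290000. Levels are given as CPM (counts scaled to a fixed library total) after scaling by trimmed means (TMM), a measure that is not corrected for transcript length and is compared here only within a gene. The 6 wild-type set I libraries stood apart from the rest of the series. Their levels rose with the GC content of transcripts (Pearson r across genes of 0.275 to 0.680, against -0.394 to 0.0903 in the other libraries), and at ZT08, ZT12 and ZT16 r was 0.387, 0.317 and 0.645 in set I and -0.130, -0.140 and 0.0574 in set P. Transcripts of the Y-linked gene Ddx3y stood at 43.1, 43.8 and 7.74 CPM at ZT08, ZT12 and ZT16 in set I and at 95.1, 98.9 and 82.1 CPM in set P, while Xist, the X-inactivation transcript of female cells, was at or below 1.34 CPM in all 24 libraries. The processed pseudogene Rps13-ps1, named after its values were seen, stood at 16.9, 0.121 and 13.3 CPM at ZT08, ZT12 and ZT16 in set I and at 5.53, 0 and 5.22 CPM in set P, against 10.1 to 13.2 CPM in the 6 knockout libraries of these hours. The part these properties have in the results was not tested.

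More genes stood apart in set I than in set P at ZT12, as at every other hour of both genotypes. On log2(CPM + 0.5), 280 of 15090 genes in the ZT12 library of set I were at least 2-fold above both the ZT08 and the ZT16 library of their own letter (1.86% of genes tested), and 156 were at least 2-fold below both (1.03%). The ZT12 library of set P had 58 such genes above (0.384%) and 12 below (0.0795%). The number of 58 was the highest number above among the 6 wild-type set P libraries, which ranged from 8 to 58. The other 22 libraries had 8 to 1915 genes above, with a median of 49.5. The library with 1915 was wild-type ZT24 of set I (12.7% of genes), so ZT12 was not the hour with the most such genes in set I. The number below was also higher in set I at ZT04 (1251 genes) and ZT20 (330 genes) than at ZT12. In the 12 knockout libraries the number above was 11 to 83.

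**Figure D1:**
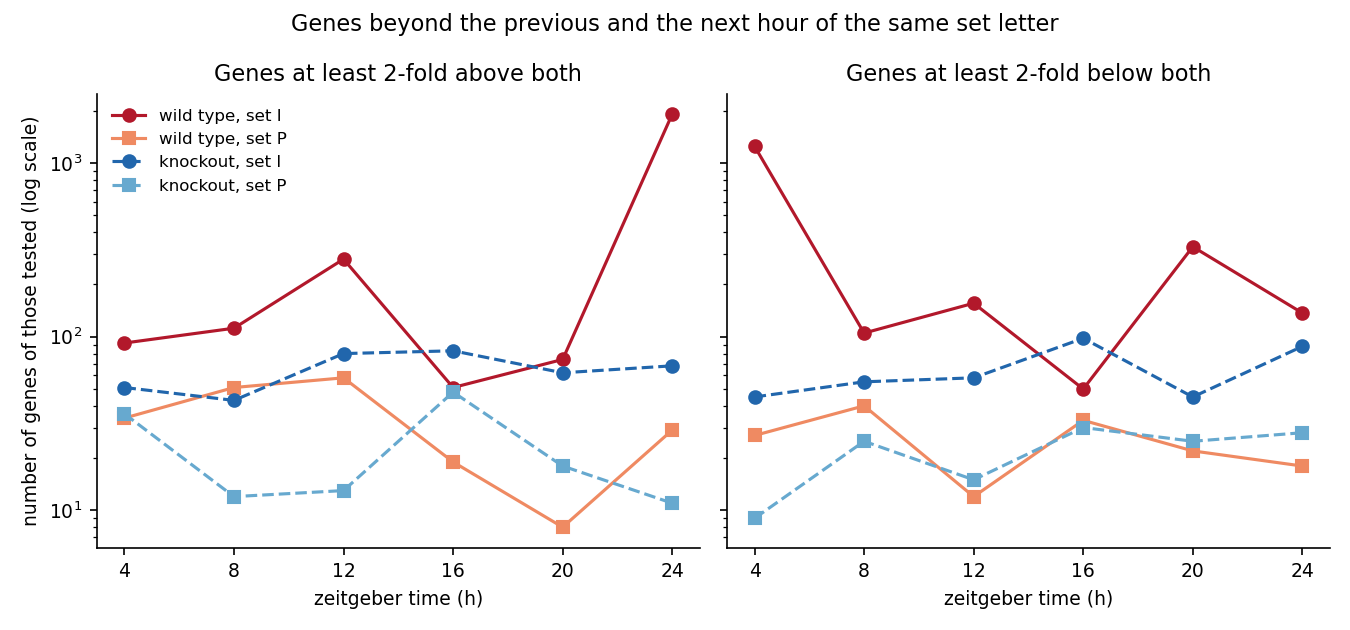
Number of genes (log scale) at least 2-fold above (left) or below (right) both neighbouring hours of the same set letter, by zeitgeber time in hours; each point is 1 library, red for wild type, blue for knockout, circles for set I and squares for set P. Wild-type ZT12 had 280 genes above in set I and 58 in set P, while ZT24 of set I had 1915.

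The genes high in set I were mostly high in set P too, by less. Of the 280 genes at least 2-fold above both neighbours in set I, 236 (84.3%) were above both neighbours in set P, where 30.3% of all genes tested were above both. The excess of ZT12 over the mean of the 2 neighbours, in CPM, was 0.280 times as large in set P as in set I at the median gene, with quartiles of 0.195 and 0.356. Same-hour excess was shared in the knockout too: 77.5% of 80 such genes at ZT12 and 86.8% of 83 at ZT16 were above both neighbours in set P, with median ratios of 0.402 and 0.404. Of the 58 genes at least 2-fold above in set P, 53 were at least 2-fold above in set I as well. The genes low in set I were shared less: of 156, 95 were below both neighbours in set P (28.9% of all genes tested) and 15 were above both. Across the 11517 genes with an average log2 CPM of 1 or more, the ZT12 differences of the 2 letters had a Pearson r of 0.615 and a Spearman rho of 0.512. Genes are not independent replicates, and the 2 letters share hour and genotype. Whether same-hour libraries of the 2 letters come from separate animals is not known, because the labels do not explain the letters.

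Fitted over both letters with edgeR's quasi-likelihood test, 226 genes passed an adjusted p of 0.05 for wild-type ZT12 against the mean of ZT08 and ZT16 (1.5% of 15090), 162 higher (1.07%) and 64 lower (0.424%). The median difference of the 162 was 1.83 on the log2 scale in set I and 0.97 in set P, and that of the 64 was -1.40 and -0.89. The same comparison of each other wild-type hour with its neighbours called 23 genes at ZT04 (0.152%), 31 at ZT08 (0.205%), 0 at ZT16 (0%), 2 at ZT20 (0.0133%) and 3 at ZT24 (0.0199%). At an unadjusted p under 0.05 the numbers were 1350 at ZT04, 1064 at ZT08, 1634 at ZT12, 976 at ZT16, 1547 at ZT20 and 2654 at ZT24, so by that count ZT24 and not ZT12 had the most. The count at ZT12 changed with the libraries in the fit: it was 3 without the ZT12 library of set I, 5 with the 12 wild-type libraries alone in the fit and 0 with the 6 alone, and with the set letter as a block within each genotype it was 576.

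**Figure D2:**
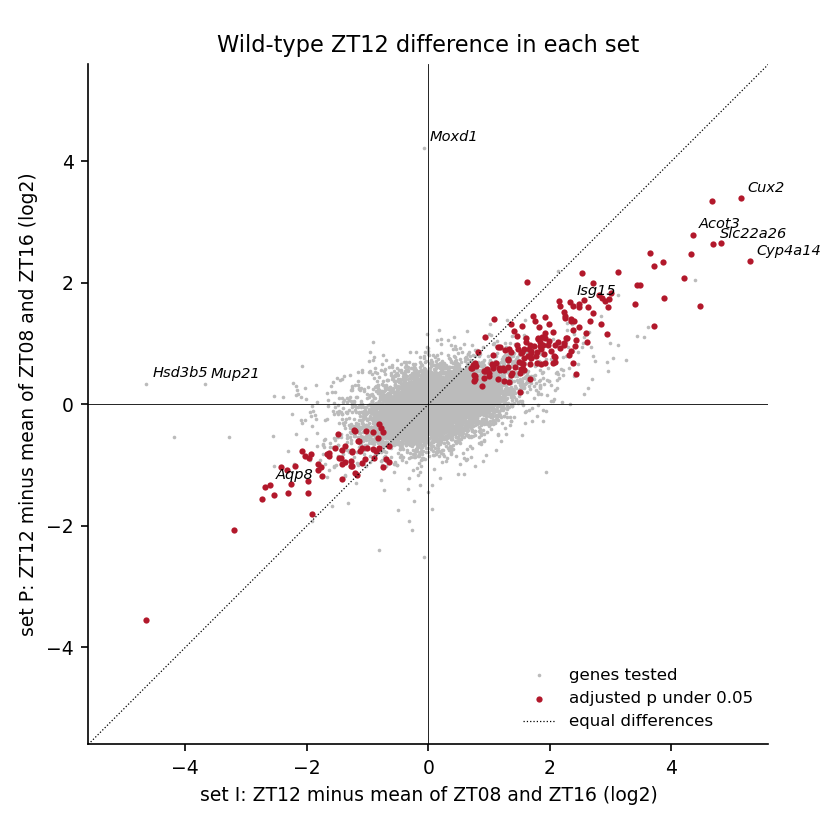
Difference of wild-type ZT12 from the mean of ZT08 and ZT16 in set I (horizontal) and set P (vertical), both as log2 of CPM + 0.5; each point is 1 of 15090 genes, red where the fit over both sets gave an adjusted p under 0.05. The 162 red points above 0 have a median of 1.83 in set I and 0.97 in set P.

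Genes known for higher expression in female than in male mouse liver held several of the largest differences. Of 31 genes on this list, 20 passed the filter on low counts, and 14 of these were called higher, beside 1.07% of all genes tested, and none lower. With the 12 wild-type libraries alone in the fit 3 of 19 members were called higher, where 5 of all 14535 genes tested were. Without the ZT12 library of set I the median fitted difference of the list was 2.36 on the log2 scale, against 3.31 in the main fit. The median difference of the 20 was 2.59 on the log2 scale in set I, 1.41 in set P and 0.11 in the knockout, against 0.05, 0.00 and -0.00 over all genes tested. In the knockout the summed level of the list was highest at ZT16 of these hours, and the contrast subtracts that hour. The sums at ZT08, ZT12 and ZT16 were 302, 540.5 and 1198 CPM in knockout set I and 422, 468 and 755 CPM in knockout set P. Members that passed the filter only through their ZT12 libraries had to differ, so these counts do not stand for the whole list, and 4 of the 14 (Acot3, Acot4, Cyp4a10 and Cyp4a14) are also on the PPAR-alpha list.

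Cux2, a homeobox transcription factor of female liver (chr5:121856366-122050102, minus strand, GRCm38), was at 0.802, 43.2 and 0.676 CPM at ZT08, ZT12 and ZT16 in set I. In set P it was at 0.465, 12.3 and 1.02 CPM. No neighbouring library exceeded 1.02 CPM, and the other 3 wild-type hours held 0.301 to 0.573 CPM. The fitted difference was 5.23 (SE 0.43) on the log2 scale, 5.14 in set I and 3.40 in set P. In the knockout Cux2 peaked at ZT16 in both letters (3.79 and 2.01 CPM, against 2.64 and 1.48 at ZT12).

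Slc22a26, an organic anion transporter gene, was at 1.20, 43.7 and 1.23 CPM at ZT08, ZT12 and ZT16 in set I and at 2.15, 12.9 and 1.27 CPM in set P, so both ZT12 libraries were above all 4 neighbours. In the knockout the high hour of Slc22a26 was ZT16, with 31.9 and 13.7 CPM against 0.469 and 0.455 CPM at ZT12. Slc22a27, which lies near it on chromosome 19, rose from 0 and 0.246 CPM to 16.6 CPM in set I, and from 0.582 and 0.382 CPM to 5.64 CPM in set P.

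Cyp17a1, the steroid 17-hydroxylase, was at 21.4, 237 and 11.7 CPM in set I and at 13.7, 74.6 and 15.1 CPM in set P, a fitted difference of 3.34 (SE 0.50). It was not high at this hour alone, since ZT04 of set I held 118 CPM. Sult1e1, the oestrogen sulfotransferase, was at 0.630, 19.5 and 0.307 CPM in set I and at 0.873, 5.95 and 1.27 CPM in set P. Both ZT12 libraries were above all 4 neighbours, but its fitted difference of 4.04 (SE 0.99) did not pass the edgeR test (adjusted p = 0.0595). Sult2a7, another sulfotransferase, was at 0.802, 30.3 and 0.983 CPM in set I and at 3.08, 10.1 and 2.80 CPM in set P, and was as high at ZT04 (33.4 and 14.5 CPM). Ugt2b37, a glucuronosyltransferase gene outside the list, was at 0.916, 18.5 and 0.983 CPM in set I and at 2.79, 7.04 and 2.42 CPM in set P.

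Genes of PPAR-alpha, the receptor that turns on fatty acid oxidation in the fasted liver, included several called genes as well. All 40 genes of the list passed the filter; 9 were called higher, beside 1.07% of all genes tested, and none lower, with a median of 0.64 in set I, 0.47 in set P and 0.04 in the knockout. Both ZT12 libraries were above all 4 neighbours for 21 of the 40, against 7.34% of all genes tested. With the set letter as a block within each genotype 22 members were called higher, where 368 of all 15090 genes tested were. With the 12 wild-type libraries alone 1 member was, where 5 of all 14535 genes tested were. Without the ZT12 library of set I the median fitted difference of the list was 0.395 on the log2 scale, against 0.569 in the main fit. The called genes were Acot2, Acot3, Acot4, Cpt1a, Cyp4a10, Cyp4a14, Cyp4a31, Pex11a and Vnn1.

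Acot3, a peroxisomal acyl-CoA thioesterase (chr12:84052144-84060402, plus strand, GRCm38), was at 2.23, 97.3 and 7.92 CPM at ZT08, ZT12 and ZT16 in set I and at 1.92, 35.5 and 10.7 CPM in set P. Both ZT12 libraries were above all 4 neighbours, and the fitted difference was 3.91 (SE 0.48), 4.35 in set I and 2.79 in set P. In the knockout its high hour was ZT16, with 20.5 and 9.999 CPM against 1.64 and 0.968 CPM at ZT12. Acot4, which lies beside it on chromosome 12, was at 53.7, 199 and 57.4 CPM in set I and at 49.3, 118 and 66.9 CPM in set P.

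Cyp4a14, a fatty acid omega-hydroxylase, had the widest set I difference of the named genes. It was at 28.2, 1732 and 67.2 CPM in set I and at 49.6, 585 and 261 CPM in set P, or 5.30 and 2.36 on the log2 scale. It was also high at other hours, at 1280.1 CPM at ZT04 and 744 CPM at ZT20 in set I, so the low neighbours at ZT08 and ZT16 take part in its difference. Its relatives Cyp4a10 (66.5, 1562 and 107 CPM in set I; 87.1, 571 and 208 CPM in set P) and Cyp4a31 (8.30, 120 and 9.15 CPM in set I; 6.46, 40.4 and 9.74 CPM in set P) had the same order of hours. These genes are close copies of each other, so reads may have been shared among them in the counting. Cpt1a, the entry enzyme of mitochondrial fatty acid oxidation, changed less: 977, 1387 and 404 CPM in set I, and 649, 888 and 331 CPM in set P. Vnn1, a pantetheinase gene, was at 36.0, 118 and 18.5 CPM in set I and at 19.96, 53.3 and 14.6 CPM in set P.

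**Figure D3:**
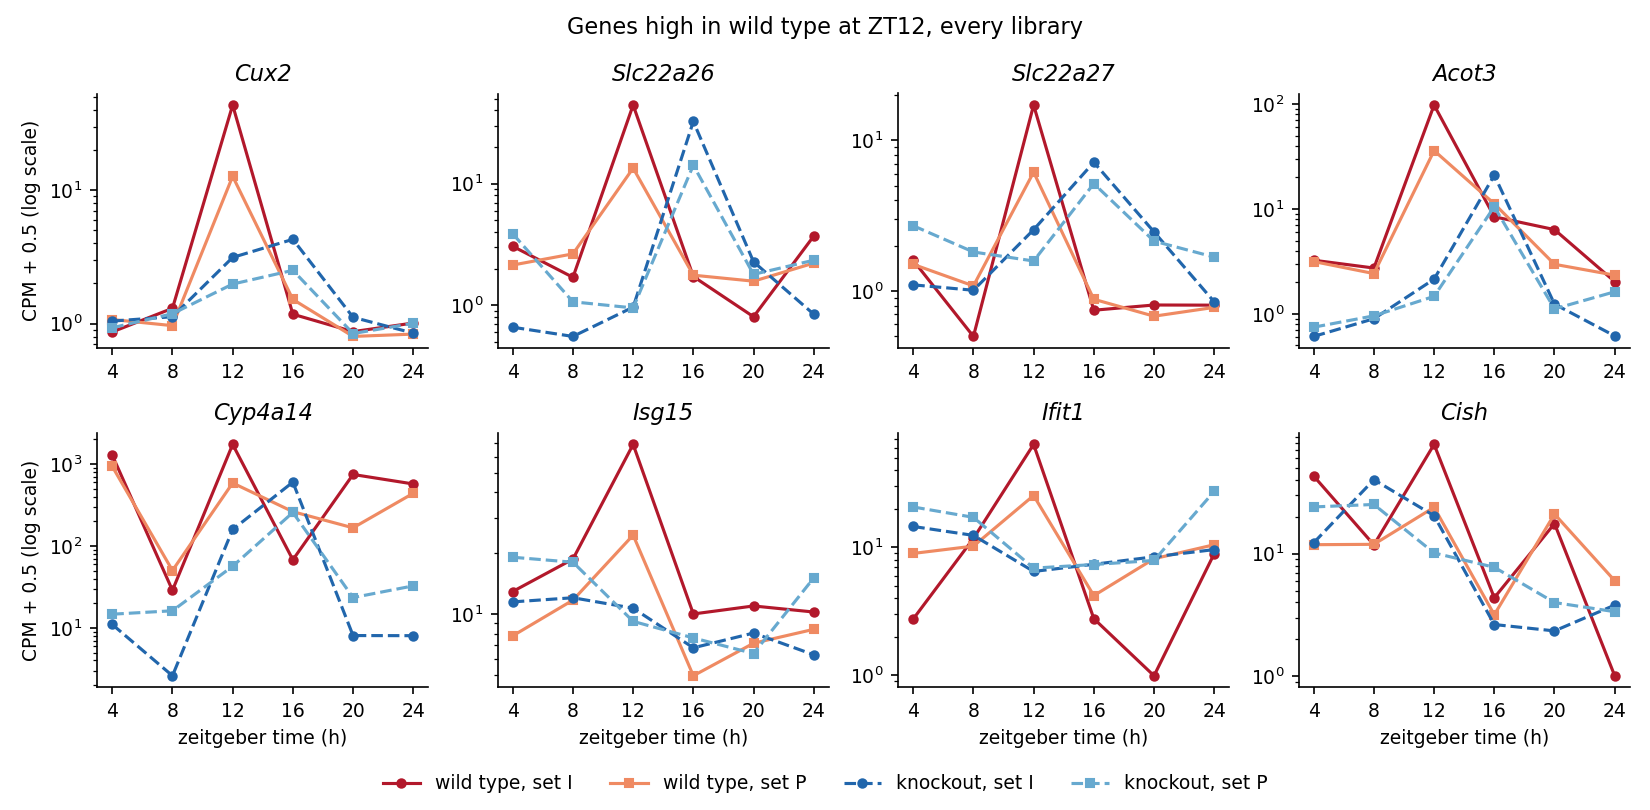
CPM + 0.5 (log scale) by zeitgeber time in hours for 8 genes high in wild type at ZT12; red lines are wild type and blue dashed lines knockout, circles are set I and squares set P, and each point is 1 library. Cux2 reached 43.2 CPM in set I and 12.3 CPM in set P at ZT12, and Slc22a26 and Acot3 were highest at ZT16 in the knockout.

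Most genes of the interferon response were higher at ZT12 than their neighbours' mean by value. All 42 genes of the list passed the filter; 18 were called higher, beside 1.07% of all genes tested, and none lower, and the median was 1.80 in set I, 0.89 in set P and -0.17 in the knockout. Set I was above its neighbours' mean in 40 of the 42 (54.7% of all genes tested) and set P in 39 (50.3% of all genes tested). At least 2-fold excess over both neighbours was seen in 18 members in set I (1.86% of all genes tested) and in 8 in set P (0.384% of all genes tested). No member was called with the 12 wild-type libraries alone in the fit, where 5 of all 14535 genes tested were. Without the ZT12 library of set I the median fitted difference of the list was 0.898 on the log2 scale, against 1.44 in the main fit. The called members were Cmpk2, Dhx58, Ifit1, Ifit3, Ifit3b, Irf7, Isg15, Mx1, Mx2, Oas1g, Oas3, Oasl1, Oasl2, Rsad2, Rtp4, Usp18, Xaf1 and Zbp1.

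Isg15, a ubiquitin-like modifier (chr4:156199424-156200818, minus strand, GRCm38), was at 18.2, 68.6 and 9.52 CPM at ZT08, ZT12 and ZT16 in set I and at 11.2, 24.1 and 4.46 CPM in set P. Its fitted difference was 2.19 (SE 0.43). In both letters ZT08 was higher than ZT16. Usp18, the protease that removes ISG15, was at 38.1, 106 and 6.39 CPM in set I and at 19.7, 38.5 and 4.202 CPM in set P, and Irf7, an interferon-induced transcription factor, was at 88.1, 233 and 22.2 CPM and at 44.9, 81.4 and 15.3 CPM. For Irf7 the set P library at ZT12 was below the set I library at ZT08, so the groups overlap across letters, and for Usp18 it was just above it. Ifit1, which binds viral RNA, was at 11.2, 63.1 and 2.27 CPM in set I and at 9.72, 24.9 and 3.69 CPM in set P. Oas3, a sensor of double-stranded RNA, was at 5.73, 21.3 and 0.737 CPM in set I and at 2.21, 6.55 and 1.15 CPM in set P. Ifi44 was higher in both ZT12 libraries (45.8 and 18.9 CPM) than in the 4 neighbours but did not pass (adjusted p = 0.0666 by edgeR).

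Irf9, a factor that carries the interferon signal, had a difference of 0.63 (SE 0.21) and did not pass (adjusted p = 0.216 by edgeR). The summed level of the list was 2343, 3549 and 906 CPM at ZT08, ZT12 and ZT16 in set I and 2147, 2066 and 1043 CPM in set P. In the sum, therefore, ZT12 was not above ZT08 in set P. In the knockout 10 of the 42 members were above their neighbours' mean, beside 49.3% of all genes tested, and 32 were below it. None was called there.

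Some interferon members, called or not, carry a known interferon-responsive sequence near their start sites, so stretches of 60 bases from their RefSeq promoter windows (GRCm38.p6) are shown. The motif searched was GAAANNGAAA, the core of the interferon-stimulated response element, on both strands in the 250 bases before the start site; capitals mark every match, and overlapping matches are joined.
Isg15, chr4:156200862-156200921, minus strand: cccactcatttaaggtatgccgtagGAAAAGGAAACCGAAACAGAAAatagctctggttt
Ifit1, chr19:34640760-34640819, plus strand: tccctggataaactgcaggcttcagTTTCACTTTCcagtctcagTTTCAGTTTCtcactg
Oas3, chr5:120777700-120777759, minus strand: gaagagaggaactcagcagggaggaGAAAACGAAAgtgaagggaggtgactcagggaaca
Rsad2, chr12:26456538-26456597, minus strand: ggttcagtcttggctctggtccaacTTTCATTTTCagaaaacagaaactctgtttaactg
Slc22a26, chr19:7802858-7802917, minus strand: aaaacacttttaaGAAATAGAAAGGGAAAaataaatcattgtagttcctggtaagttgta
The first 4 are interferon genes and the last is the transporter gene described above, shown because it is no interferon gene and held the letters too. The motif was in 2.98% of all 32851 windows and in 3.32% of the 10889 tested genes that have a window. Of the 18 interferon members called higher, 12 have a window and 7 of these (58.3%) held it. So did 15 of the 30 tested members with a window, called or not. The 30 contain the 12, and whether the motif marks the called members was not tested. Among the called genes outside the list it was in 9 of 98 (9.18%), and these include Cxcl10, Ifi207, Phf11b and Apobec3, interferon-induced genes that the list does not hold. The D-box, the site of PAR bZip factors, was searched only as TTATGTAA, so other forms of it were not counted. These letters were in 1 of the 110 genes called higher with a window (0.909%), beside 0.707% of tested genes. The E-box CACGTG was in 8 of the 110 (7.27%), beside 9.67% of tested genes. The STAT motif TTCNNNGAA was in 8 of the 110 (7.27%), beside 7.50%. A match describes these letters and shows no binding.

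Growth hormone targets were split. Of 13 tested genes 2 were called higher, Cish and Igfbp1, beside 1.07% of all genes tested, and the list median was 0.21 in set I and 0.25 in set P. Cish, a STAT5-induced inhibitor of cytokine signalling, was at 11.3, 77.2 and 3.87 CPM in set I and at 11.4, 23.4 and 2.67 CPM in set P, with a difference of 3.04 (SE 0.69). Socs2, a related inhibitor, was at 11.2, 65.3 and 1.97 CPM in set I and at 22.3, 35.1 and 9.04 CPM in set P, and did not pass (adjusted p = 0.0944 by edgeR). Igfbp1, an IGF-binding protein of the fasted liver, reached similar levels in the 2 letters: 22.3, 70.7 and 22.8 CPM in set I, and 12.7, 62.1 and 17.7 CPM in set P.

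Immediate early genes, which respond to growth and stress signals within minutes, included 4 called higher of 19 tested (Myc, Jun, Dusp1 and Zfp36), beside 1.07% of all genes tested. Myc, a growth-promoting transcription factor, was at 6.18, 54.2 and 8.66 CPM in set I and at 6.17, 20.5 and 5.03 CPM in set P. Jun, a subunit of AP-1, was at 7.10, 46.6 and 8.78 CPM in set I and at 7.21, 19.1 and 8.02 CPM in set P. In both genes the 4 neighbours lay between 5.03 and 8.78 CPM, and both ZT12 libraries lay above them.

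Among glucocorticoid-responsive genes 5 of 20 were called higher (Mt1, Gadd45g, Pck1, Dusp1 and Errfi1), beside 1.07% of all genes tested, and none lower. The medians were 1.29 in set I, 0.57 in set P and 0.48 in the knockout, where 17 of the 20 were above their neighbours' mean, beside 49.3% of all genes tested. Pck1, the enzyme that commits carbon to gluconeogenesis, was at 1461, 5231 and 440 CPM in set I and at 1388, 2892 and 752 CPM in set P. Gadd45g, a growth-arrest gene, was at 1.77, 31.0 and 5.34 CPM in set I and at 2.33, 13.5 and 2.93 CPM in set P. Mt1, a metal-binding metallothionein, was at 79.5, 288 and 4.36 CPM in set I and at 166, 101 and 4.97 CPM in set P, where ZT12 was not the highest hour. Lpin1, a phosphatidate phosphatase on the triglyceride synthesis list, was at 531, 1395 and 64.3 CPM in set I and at 310, 553 and 92.5 CPM in set P. Por, the electron donor of microsomal P450 enzymes, was at 517, 1491 and 561 CPM in set I and at 479, 952 and 541 CPM in set P.

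Genes low at ZT12 fell into those low in both letters and those low in set I only by value. Aqp8, a water channel, was at 131, 27.0 and 215 CPM at ZT08, ZT12 and ZT16 in set I and at 71.5, 32.3 and 94.5 CPM in set P, with a difference of -2.08 (SE 0.38). Both ZT12 libraries were below all 4 neighbours. Ppp1r3c, which targets phosphatase 1 to glycogen, was at 28.3, 14.9 and 275 CPM in set I and at 32.2, 26.9 and 182 CPM in set P. Elovl3, a fatty acid elongase, was at 70.0, 35.9 and 465 CPM in set I and at 63.1, 42.6 and 221 CPM in set P. Gas7, a cytoskeletal regulator, was at 9.51, 1.70 and 9.70 CPM in set I and at 9.72, 4.61 and 9.87 CPM in set P, so its neighbours were alike and ZT12 alone was low. Atp2b2, a plasma membrane calcium pump, was at 2.4, 1.15 and 12.8 CPM in set I and at 1.92, 0.546 and 5.99 CPM in set P, and did not pass (adjusted p = 0.111 by edgeR). In Ppp1r3c, Elovl3 and Atp2b2 the trough was shallow against ZT08 and deep against ZT16.

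Genes known for higher expression in male liver separated the letters. Of 30 tested, 28 were below their neighbours' mean in set I, beside 6821 of 15090 genes tested. In set I 13 were at least 2-fold below both neighbours, beside 1.03% of all genes tested. In set P, in contrast, 25 were above their neighbours' mean, beside 50.3% of all genes tested. The medians were -0.91 in set I, 0.18 in set P and 0.24 in the knockout, and over both letters 2 were called lower (Elovl3 and Tmc5), beside 0.424% of all genes tested, and none higher. Hsd3b5, a steroid dehydrogenase of male liver, was at 124, 4.61 and 130 CPM in set I and at 118, 118 and 73.1 CPM in set P. Mup21, a major urinary protein, was at 43.2, 4.85 and 107 CPM in set I and at 294, 367 and 288 CPM in set P. C6, a terminal complement component, was at 243, 50.01 and 287 CPM in set I and at 386, 381 and 318 CPM in set P. Cyp2u1, a fatty acid hydroxylase, was at 27.4, 3.03 and 41.5 CPM in set I and at 22.9, 15.5 and 22.7 CPM in set P. In these 4 genes ZT12 of set I was the lowest of the 6 libraries, Cyp2u1 was also below both neighbours in set P, and the difference between the letters was not tested, because each letter has 1 library per hour. Moxd1, a monooxygenase-like gene on the same list, was high at ZT12 in set P alone, at 0.0570, 0 and 0 CPM in set I and at 0.0580, 14.4 and 0.637 CPM in set P, with 172 and 0.410 CPM in the 2 knockout libraries at ZT12. Mup genes are close copies of each other, so their counts may be mixed. The summed level of the male list was 12930, 7450 and 15610 CPM at ZT08, ZT12 and ZT16 in set I and 15060, 19600 and 19060 CPM in set P, and that of the female list was 374, 4283 and 340 CPM in set I and 419, 1723 and 808 CPM in set P. Only set I thus had the female sum up and the male sum down together by value. The Ddx3y levels given above were lower in set I than in set P at each of these hours. In set I Ddx3y was lowest at ZT16, where the female sum was 340 CPM and the male sum 15610 CPM. Xist was at or below 0.687 CPM in the wild-type set I libraries. How these levels relate to the 2 lists was not tested.

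**Figure D4:**
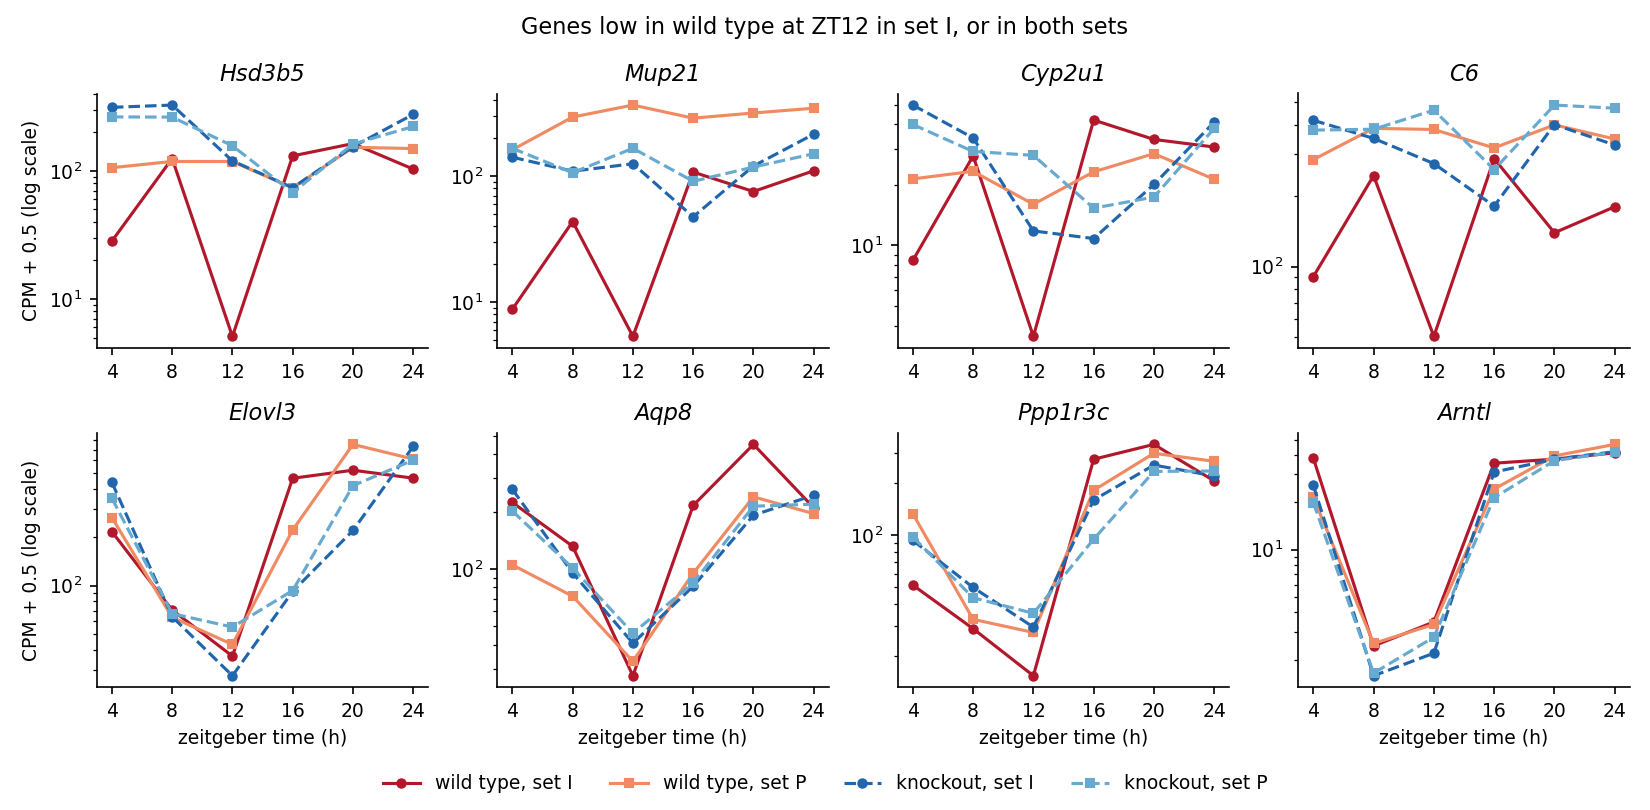
CPM + 0.5 (log scale) by zeitgeber time in hours for 8 genes; red lines are wild type and blue dashed lines knockout, circles are set I and squares set P, and each point is 1 library. In the upper row wild-type set I was low at ZT12 (Hsd3b5 at 4.61 CPM against 118 CPM in set P), and Cyp2u1 was also below its neighbours in set P; in the lower row Elovl3, Aqp8 and Ppp1r3c were low in both letters, and Arntl was low at ZT08 and ZT12.

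The knockout offers a test that the choice of the hour did not use. The same contrast in its 6 libraries called 1 gene of 15090 (0.00663%), the gene model Gm48496, with 668 genes at an unadjusted p under 0.05. Gm48496 was at 3.22 and 2.11 CPM at ZT12, against 0 to 0.115 CPM in the 4 neighbouring knockout libraries (adjusted p = 0.0429 by edgeR), and was named after its values were seen. The count was 9 with the set letter as a block within each genotype, 37 by DESeq2 and 98 with the knockout libraries alone in the fit. Of the 162 genes called higher in wild type, 112 were above their neighbours' mean in the knockout, beside 49.3% of all genes tested, and 34 were higher at an unadjusted p under 0.05, beside 2.29%. Of the 64 called lower, 55 were below and 31 were lower at that p, beside 2.14%. Both contrasts come from 1 fit with a shared estimate of spread for each gene, and genes that pass in wild type tend to have a small one. The shares at that p may therefore be raised in part by the way these genes were picked.

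Gene groups that rose in wild type differed in the knockout by value. Pck1 was at 1294, 2796 and 465 CPM in knockout set I and at 1176, 1769 and 496 CPM in knockout set P, so ZT12 was the highest of the 3 hours in both, with a difference of 1.57 (SE 0.41, adjusted p = 0.394 by edgeR). Igfbp1 (1.73, SE 0.42, adjusted p = 0.297) and Lpin1 (1.39, SE 0.51, adjusted p = 0.843) also had ZT12 highest in both letters, and Aqp8 was lowest there, at 40.3 and 45.5 CPM against 80.6 to 101 CPM. Isg15, in contrast, was at 11.6, 10.2 and 6.32 CPM in knockout set I and at 17.6, 8.71 and 7.12 CPM in knockout set P. Cholesterol synthesis genes were above their neighbours' mean in 25 of 25 in the knockout, beside 49.3% of all genes tested. Their median there was 0.43, and none was called in either genotype.

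The difference between the wild-type and the knockout contrast passed for 0 genes by edgeR (0% of 15090), with 781 at an unadjusted p under 0.05. DESeq2 called 52, and edgeR with the set letter as a block within each genotype called 30. The edgeR count was 28 without the wild-type ZT12 library of set P. In the edgeR fit without a set-letter block the adjusted p of the difference was 0.0545 for Cux2, 0.0778 for Acot3 and 0.429 for Isg15. A different ZT12 response in the 2 genotypes was not shown for these genes in that fit.

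To ask what lies beyond a smooth rhythm, each genotype was fitted with a 24 h cosine over its 12 libraries plus a term for ZT12. In wild type this term passed for 2 genes of 15090 (0.0133%), among them Cux2 (adjusted p = 0.00145 by edgeR), with 591 genes higher and 531 lower at an unadjusted p under 0.05. In the knockout it passed for 0 genes, with 388 at an unadjusted p under 0.05, and for 3 with the set letter as a block within each genotype. The wild-type count was 49 with that block, 1 without the ZT12 library of set I and 106 without that of set P. Isg15 (adjusted p = 0.0871) and Acot3 (adjusted p = 0.108) did not pass.

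Among 19 core clock and PAR bZip genes 1 was called higher, beside 1.07% of all genes tested, and 1 lower, beside 0.424%. The first was Ciart, a clock repressor, and the second Arntl, which encodes the activator BMAL1. None was at least 2-fold beyond both neighbours in either set. Over all genes tested 1.86% were so above and 1.03% below in set I, and 0.384% and 0.0795% in set P. At such shares a count of none among 19 genes says little. Both ZT12 libraries were above all 4 neighbours for 3 of the 19, beside 7.34% of all genes tested, and below them for none. Arntl was at 1.95, 2.97 and 34.9 CPM in set I and at 2.04, 2.85 and 23.7 CPM in set P, so its call comes from the high ZT16 libraries. Ciart was at 23.4, 30.01 and 3.93 CPM in set I and at 21.2, 18.7 and 5.35 CPM in set P. Per2 was at 47.3, 65.5 and 87.4 CPM in set I and at 51.0, 67.03 and 92.9 CPM in set P, midway at ZT12 in each. Nr1d1, which encodes REV-ERB alpha, fell through the 3 hours, at 84.1, 11.5 and 2.70 CPM in set I and at 58.8, 21.6 and 2.80 CPM in set P. Dbp, the knocked-out factor, was at 56.8, 24.1 and 2.15 CPM in set I and at 50.3, 29.8 and 3.12 CPM in set P, and at or below 0.114 CPM in the 6 knockout libraries of these hours.

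**Figure D5:**
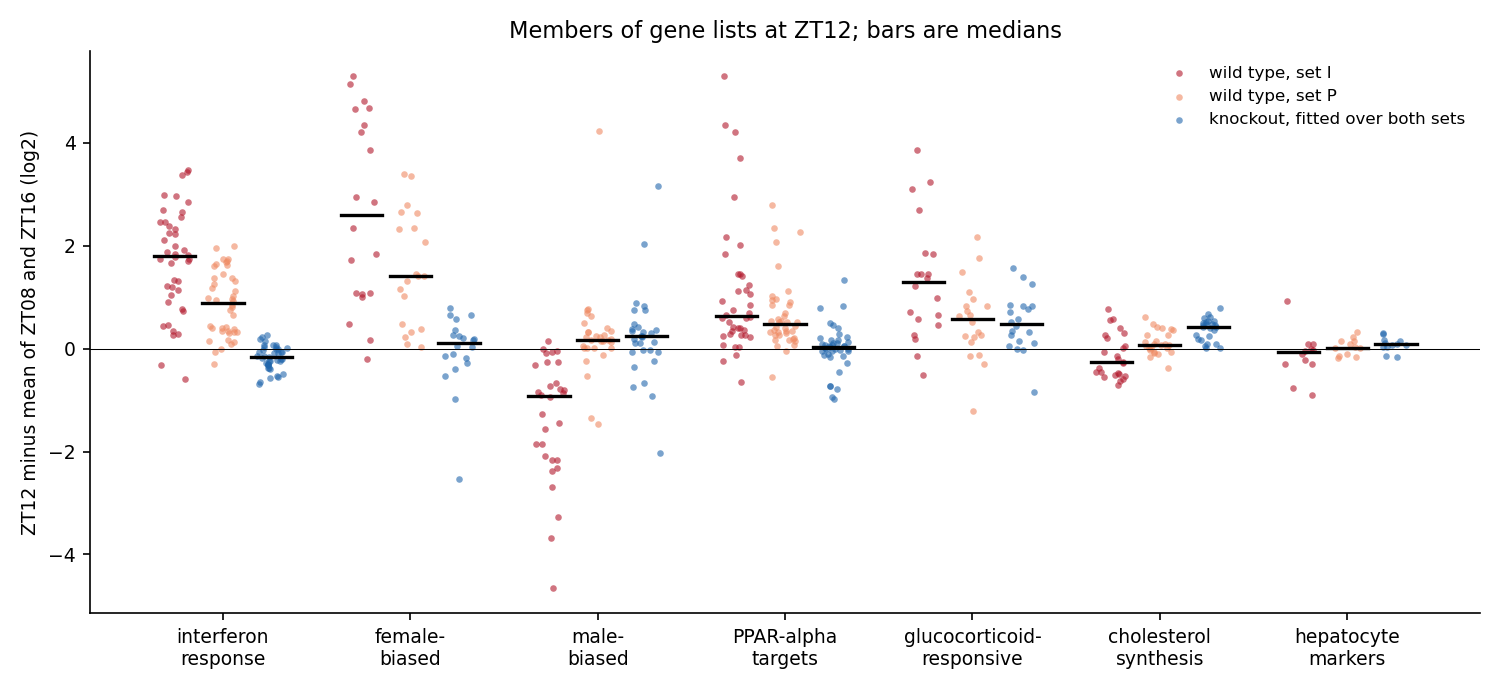
ZT12 minus the mean of ZT08 and ZT16 (log2) for the tested members of 7 gene lists; red is wild-type set I, orange wild-type set P and blue the knockout fitted over both sets, each point is 1 gene and bars are medians. The interferon medians were 1.80, 0.89 and -0.17, and male-biased genes had a median of -0.91 in set I and 0.18 in set P.

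The tissue label matched its markers, and no list of another cell type had a called member. The 12 tested hepatocyte markers had a median of -0.07 in set I and 0.02 in set P, none was called, and their summed level was 91450 to 117300 CPM in the 6 libraries. Kupffer cell and macrophage markers (13 tested, none called) summed to 1025, 1094 and 655 CPM in set I and to 907, 787 and 615 CPM in set P. All 13 were above their neighbours' mean in set I (54.7% of all genes tested) and 8 in set P (50.3% of all genes tested). Plasmacytoid dendritic cell markers, cells that release interferon, summed to 156, 290 and 140 CPM in set I and to 137, 163 and 125 CPM in set P, with 5 tested. Bst2, itself an interferon-induced gene and on both lists, made up most of that sum. The other 4 summed to 23.8, 26.6 and 15.7 CPM in set I and to 32.5, 29.5 and 27.95 CPM in set P, and Siglech, which defines these cells, was at 0.430 to 1.45 CPM in the 6 libraries. The part of these cells in the interferon result was not tested. Neutrophil markers summed to 65.04 CPM at ZT08 of set P and to 2.89 to 8.59 CPM in the other 5 libraries. All 7 tested were below their neighbours' mean in set P, beside 7501 of 15090 genes tested. Red blood cell transcripts summed to 220, 161 and 330 CPM at ZT08, ZT12 and ZT16 in set I and to 224, 198 and 245 CPM in set P, where all 7 were below that mean. In bulk liver, more cells of a type and more RNA per cell cannot be told apart.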

How the data were processed

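Liver RNA was sequenced from stranded poly(A) libraries, per the labels' protocols. The authors deposited whole-number read counts per gene, and the submitters' processing notes list STAR 2.4.0i and mm10; for the counting step and its annotation, the tool is not given in the sources used here. Values of 54532 genes in 24 libraries were taken as deposited, and 54495 IDs matched a symbol in GENCODE M21 or the name tables. With R 4.3.3, edgeR 4.0.16 fitted 12 group means (TMM factors, filterByExpr, 15090 genes, 12 residual degrees of freedom), or a 24 h cosine per genotype with a ZT12 term (16 residual degrees of freedom), and quasi-likelihood tests were Benjamini-Hochberg adjusted over all genes tested. CPM values are TMM-scaled; the pseudocount for single libraries was 0.5 CPM. Standard errors are on the log2 scale. DESeq2 1.42.0 was an alternative. The code of the fits was also run on simulated counts that had no set-letter effect. That run therefore does not test fits without a term for the letter on data such as these. The table held 0 columns of another series.

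The members, gene lists and tests were chosen with earlier results of these data known. Named genes were the genes given with the choice of the hour, the core clock list, the 10 largest and 10 lowest wild-type differences with an average log2 CPM of 1 or more and both ZT12 libraries beyond all 4 neighbours, the 8 furthest above and below in each letter, those passing the cosine and knockout tests, up to 4 members per list, and members of a list with 5 or fewer calls. Genes called in a list of more than 5 are named as its calls, and Rps13-ps1, Gm48496, Irf7, Irf9, Cpt1a, Vnn1, Acot4, Por, Bst2, Siglech, Cxcl10, Ifi207, Phf11b and Apobec3 were chosen after their values were seen. The other gene that passed the wild-type cosine test is not reported here.

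Replicate numbers stand for the set letters. Same-letter libraries deviated together from their group means, with r of 0.616, 0.773 and 0.656 between the wild-type hours and 0.253, 0.276 and 0.239 between the knockout hours (11517 genes), all over 0.1. The main fits nevertheless have no term for the set letter and do not use this pairing. The standard errors and adjusted p-values of single genes come from these main fits, and none is given from a blocked fit. A fit with the letter as a block is given where it moved a count by over 1.5 times.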

Additional observations from a re-analysis of the deposited data

How the results depend on the processing

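Wild-type ZT12 against its neighbours gave 226 genes, and 234 with RLE factors, 233 with an average log2 CPM of 1 or more and 326 with 1 set-letter block. It gave 526 with no filter, 369 by DESeq2, 366 with an offset for GC and length, 576 with a replicate block per genotype, 734 with that block and the offset together, 5 with the 12 wild-type libraries alone and 0 with the 6 alone. Without single libraries it ranged from 3 (without ZT12 of set I) to 392 (without ZT12 of set P). Added after seeing the data, it was 19 without the 6 wild-type set I libraries and 2865 without those of set P, where the lone library of each hour is assumed to vary like the knockout groups. Without the set I libraries the median fitted difference was 2.22 for the female-biased list and 0.472 for the PPAR-alpha list. It was 0.929 for the interferon list and 0.233 for the male-biased list. In the main fit these 4 medians were 3.31, 0.569, 1.44 and -0.316.

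The knockout contrast (1 gene) gave 0 with RLE factors, 133 with no filter, 37 by DESeq2, 10 with 1 replicate block, 9 with a block per genotype, 29 with that block and the offset, 13 with the offset and 98 with the knockout libraries alone, and 0 to 19 without single libraries. The difference between genotypes (0 genes) gave 191 with no filter, 52 by DESeq2, 2 with 1 replicate block, 30 with a block per genotype, 33 with that block and the offset, 2 with the offset, and 0 to 28 without single libraries. Beyond the cosine, wild type (2 genes) gave 15 with RLE factors, 16 with an average log2 CPM of 1 or more, 49 with a replicate block per genotype, and 1 to 106 without single libraries; the knockout (0 genes) gave 4 with an added 12 h term, 3 with the block, and 0 to 3 without single libraries. Genes at least 2-fold beyond both neighbours numbered 436 in set I and 70 in set P, 795 and 221 with a pseudocount of 0.1 CPM, 234 and 34 with 2 CPM, and 278 and 46 against all 4 neighbouring libraries; set I had more in each. With the GC and length slope removed they were 442 and 71. The cause of these changes was not tested.

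No called difference of a named gene changed sign. Among uncalled ones, 6 changed sign by over 0.5 on the log2 scale. Without the ZT12 library of set I Hsd3b5 (-0.86) became 0.121 and C6 (-0.52) became 0.336. Without that of set P Mup21 (0.02) became -5.26, Moxd1 (5.64) -4.29, Nr1d1 (0.24) -0.296 and Gm48496 (0.54) -0.172. With a replicate block per genotype Mup21 was -0.984. The same genes except Gm48496 changed sign when all 6 wild-type libraries of that set letter were left out. RLE factors moved the median of all genes by less than 0.1 on the log2 scale.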
